A study of Mus musculus with 6 samples.

Results

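Imprinted genes are transcribed mainly from the copy inherited from 1 parent. The 35 genes described here are well-known imprinted genes of the mouse, 21 expressed from the paternal copy and 14 from the maternal copy, and were taken by name from the 54532 genes of the deposited expression table, which holds all 35. *Gnas*, whose transcripts were not told apart, is counted as maternally expressed throughout. RNA of whole ovaries at 16.5 days post-coitus (dpc) of C57BL/6 mice was sequenced in 3 Ctrl and 3 cKO libraries. The Ctrl mice are wild type by their labels, while the cKO mice were *Stra8-GFPCre* *Srsf1* Fl/Fl, in which the loxP-flanked exons of *Srsf1*, a splicing factor gene, are removed by a Cre that is active in germ cells from the start of meiosis. Somatic cells of the cKO ovary keep *Srsf1* as far as the Cre is limited to germ cells. The sources used here do not say whether ovaries of several animals were pooled for a library. Poly-A RNA was sequenced, so mature miRNAs were not measured. The reads were not assigned to parental alleles, so every value is the sum of both copies.

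Imprints are DNA methylation marks set in the egg or the sperm at imprinting control regions, which then govern clusters of genes for the life of the embryo. Many of the genes act on fetal growth, with paternally expressed genes such as *Igf2* promoting it and maternally expressed genes such as *Cdkn1c*, *Grb10* and *Igf2r* restraining it. In the germ line the marks are erased during fetal life and are set again later, in females in the growing oocytes after birth. A whole fetal ovary therefore holds germ cells in a different imprint state from the somatic cells around them. In such bulk RNA, fewer cells of a type and less RNA per cell cannot be told apart.

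Depth was close between libraries, with 14212164 to 16784241 reads on genes. Expression is given as FPKM, the reads on a gene scaled to its length and to the size of the library. *Srsf1* itself was lower in cKO (log2 fold change -0.99, SE 0.13, where SE is the standard error). Germ cell markers were uneven within each group: the summed FPKM of 15 germ cell marker genes ran from 196.8 to 744.5 in Ctrl and from 313.1 to 944.5 in cKO, with Ctrl 1 and cKO 2 lowest in their groups, and no germ cell marker was at 0. The sums of 14 pregranulosa cell markers were steadier, 698.0 to 813.6 in Ctrl and 657.0 to 948.2 in cKO. The protocol text of the labels mentions retinas, but 10 retina markers summed to no more than 2.34 FPKM in any library, and *Crx* was at 0 in all.

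Before the values, a few sequences from around the starts of these genes are given. *Peg3* and *Usp29*, both paternally expressed, lie head to head on chromosome 7 with 146 bases between their starts, at chr7:6730432-6730577 of GRCm38.p6, a stretch with 5 CpG dinucleotides that is printed on the plus strand. For *Dlk1* and *Meg3*, the paternally and the maternally expressed leaders of a domain on chromosome 12, the 250 bases before the RefSeq start are shown, at chr12:109452573-109452822 and chr12:109540746-109540995, both on the plus strand. Capitals mark TGCCGC or its reverse complement GCGGCA, the letters recognised by ZFP57, a zinc finger protein that guards methylated imprints.
Peg3-Usp29 interval: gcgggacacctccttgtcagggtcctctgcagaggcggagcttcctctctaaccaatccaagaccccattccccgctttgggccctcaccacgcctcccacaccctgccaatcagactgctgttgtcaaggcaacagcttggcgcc
Dlk1 promoter: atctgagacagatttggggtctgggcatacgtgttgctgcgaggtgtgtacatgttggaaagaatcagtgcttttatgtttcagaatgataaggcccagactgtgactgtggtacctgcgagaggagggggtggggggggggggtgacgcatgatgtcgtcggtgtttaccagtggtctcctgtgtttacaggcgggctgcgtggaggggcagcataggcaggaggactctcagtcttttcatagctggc
Meg3 promoter: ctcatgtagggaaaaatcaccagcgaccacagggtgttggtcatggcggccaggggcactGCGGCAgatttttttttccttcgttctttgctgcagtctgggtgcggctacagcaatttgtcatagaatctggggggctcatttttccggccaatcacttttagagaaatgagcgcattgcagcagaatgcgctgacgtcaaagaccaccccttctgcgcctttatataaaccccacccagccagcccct
The *Meg3* window holds the motif and the *Dlk1* window does not. RefSeq gave 44 promoter windows of 300 bases for 29 of the 35 genes, and 11 of them (25%) held the motif on either strand, against 3813 of 32851 windows of all genes (11.6%). Windows of 1 gene can overlap, and 2 of the 11 are almost the same stretch of *Mest*. The motif contains a CpG, and the windows of imprinted genes held a median of 12 CpG against 7 in all windows. Such a match is only a description of letters, and neither methylation nor binding was measured here.

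Several of the noncoding members are hosts of small RNAs, whose mature sequences follow with the seed, bases 2 to 8, in capitals. The first pair lies in an exon of *H19*, the next 4 in exons of *Mirg*, and the last 4 on the strand opposite an exon of *Rtl1*.
mmu-miR-675-5p (chr7:142577112-142577133, minus strand): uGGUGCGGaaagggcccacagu
mmu-miR-675-3p (chr7:142577078-142577099, minus strand): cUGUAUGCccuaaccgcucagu
mmu-miR-134-5p (chr12:109734145-109734166, plus strand): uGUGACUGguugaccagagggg
mmu-miR-485-3p (chr12:109734946-109734967, plus strand): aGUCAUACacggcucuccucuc
mmu-miR-377-3p (chr12:109740553-109740574, plus strand): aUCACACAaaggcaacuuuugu
mmu-miR-410-3p (chr12:109743764-109743784, plus strand): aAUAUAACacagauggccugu
mmu-miR-431-5p (chr12:109590459-109590479, plus strand): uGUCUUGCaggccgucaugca
mmu-miR-433-3p (chr12:109591781-109591802, plus strand): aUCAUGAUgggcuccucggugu
mmu-miR-127-3p (chr12:109592888-109592909, plus strand): uCGGAUCCgucugagcuuggcu
mmu-miR-136-5p (chr12:109595331-109595352, plus strand): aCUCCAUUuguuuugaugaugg
All of the seeds printed differ from each other, and over 29 RefSeq mature miRNAs looked up in hairpins of these genes there were 29 distinct seeds. The deposited table lists 0 reads in all 6 libraries for each hairpin gene whose miRNA is printed.

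The imprinted genes covered nearly the whole range of expression (see the plot of levels by library). Together they took 0.925% to 1.14% of the reads on genes in a library. By mean FPKM over the 6 libraries, 4 genes reached 100, a further 13 lay between 10 and 100, 13 lay between 1 and 10, and 5 were below 1. *H19*, a noncoding RNA of fetal tissues, was the highest at a mean of 1439 FPKM, which placed it at rank 11 of all genes in the table. *Cdkn1c*, which encodes the cell cycle inhibitor p57, followed at 257 FPKM and rank 106, then *Mest* at 154 and *Peg3* at 102. *Peg10* (94.7 FPKM) and *Dlk1* (73.8 FPKM) came next. At the lower end, *Kcnq1ot1* stood at 0.547 FPKM, *Rasgrf1* at 0.502, *Ascl2* at 0.302 and *Nap1l5* at 0.284. The values of neighbours in this order overlapped between libraries at most steps: *Peg3* ran from 80.3 to 121 FPKM and *Peg10* from 69.4 to 109, whereas the lowest *H19* value, 1023, was above the highest *Cdkn1c* value, 309.6.

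**Figure D1:**
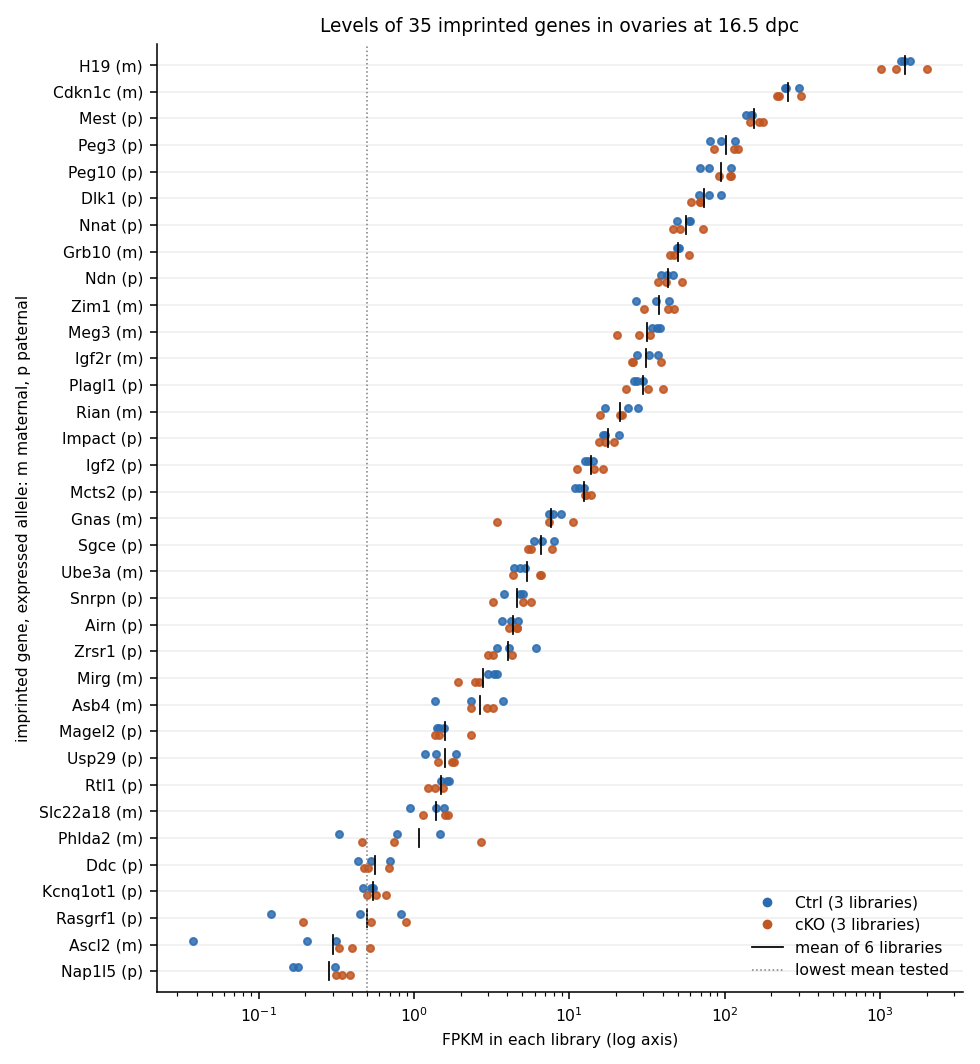
FPKM of each of 35 imprinted genes (rows, ordered by mean level) on a log axis, with 1 point per library for Ctrl (blue) and cKO (orange) and a black bar at the mean of the 6 libraries. *H19* stands at the top with 1439 FPKM, and the groups overlap in most rows. The dotted line is the lowest mean tested, 0.5 FPKM.

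To compare cKO with Ctrl ovaries, limma was run, two-sided, on log2(FPKM + 1) of all 17180 genes whose mean FPKM reached 0.5, which kept 33 of the 35 imprinted genes. Because 1 is added, changes of weakly expressed genes come out too small. At the unadjusted p below 0.05 that the study uses, 1 of the 33 passed, *Mirg*, which was lower in cKO. That is 3.03% of the imprinted genes, where 4.43% of all genes tested passed (2.68% higher and 1.75% lower in cKO). At a Benjamini-Hochberg adjusted p below 0.05, limma called 0 imprinted genes, as it called 0 genes in all, and limma voom on the recovered reads also called 0 of both. The median log2 fold change was 0.04 over the 33 genes, 21 above and 12 below 0, and -0.01 over all genes tested. The 20 paternally expressed genes tested had a median of 0.05 with none past the limit, and the 13 maternally expressed genes had a median of -0.07 with *Mirg* alone past it. The groups of 3 libraries did not overlap for *Mirg* and *Meg3* (lower) and *Mcts2* (higher), 3 of 33, against 8.68% of all genes tested (4.59% higher and 4.1% lower in cKO). For 31 of the 33 genes the 95% interval of the log2 fold change lay within 1 of 0 on either side, and the exceptions were *Phlda2* and *Gnas*. On this scale that is short of a 2-fold change of FPKM + 1, not of FPKM. *Ddc*, *Kcnq1ot1* and *Rasgrf1* had Ctrl means of 0.555, 0.516 and 0.465 FPKM. From such levels even a complete loss stays within 1 of 0, so the count says little about weakly expressed genes. The intervals reached between 0.262 and 0.941 to each side of the estimate, depending on the gene. An estimate smaller than the reach of its own interval could not pass the unadjusted limit, so small changes could be missed.

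**Figure D2:**
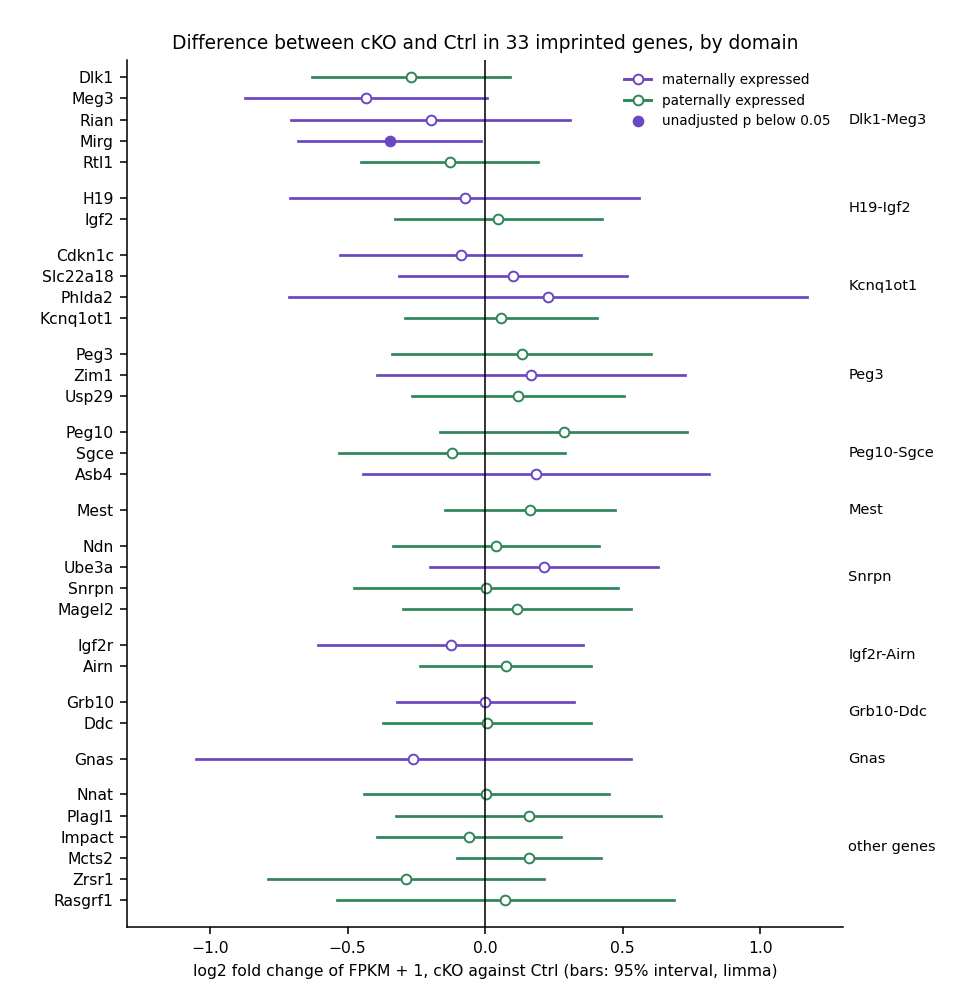
Log2 fold change of FPKM + 1 in cKO against Ctrl for the 33 imprinted genes tested, grouped by domain, with bars for the 95% interval from limma. The interval of *Mirg* (filled point) lies just below 0, all 5 genes of the *Dlk1*-*Meg3* domain are left of 0, and the widest interval is that of *Phlda2*.

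The *Dlk1*-*Meg3* domain of chromosome 12 held the only member past the limit. Its paternal copy expresses the protein-coding genes *Dlk1*, *Rtl1* and *Dio3*, and its maternal copy expresses a run of noncoding RNAs, *Meg3*, *Rian* and *Mirg*, of which *Rian* hosts snoRNAs and *Mirg* hosts miRNAs. *Mirg* (109729764 to 109749460, plus strand) was at 3.29, 3.00 and 3.41 FPKM in Ctrl 1, 2 and 3 and at 2.47, 2.62 and 1.93 in cKO 1, 2 and 3, on 200 to 434 reads. All 3 cKO values were below all 3 Ctrl values. The log2 fold change was -0.35 (SE 0.14, limma, unadjusted p = 0.0424, adjusted p = 0.978, exact permutation test p = 0.1, the smallest that 3 against 3 allow). Over the reported setting and 16 alternatives the adjusted p of *Mirg* lay between 0.307 and 1.0, and the unadjusted p was below 0.05 in 8 of the 17 settings. It was not past the limit without Ctrl 1 (log2 fold change -0.34), without Ctrl 2 (-0.39), without Ctrl 3 (-0.32), without cKO 1 (-0.38) or without cKO 3 (-0.26).

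*Meg3* (109541001 to 109571726, plus strand) had 38.4, 36.9 and 34.1 FPKM in Ctrl and 28.0, 33.3 and 20.4 in cKO, again with every cKO library below every Ctrl library. Its log2 fold change of -0.43 (SE 0.18) missed the limit (unadjusted p = 0.0522, adjusted p = 0.978 in limma). With 1 library left out it ran from -0.59 without cKO 2 (limma, unadjusted p = 0.0112) to -0.25 without cKO 3 (limma, unadjusted p = 0.122). *Dlk1*, a membrane protein related to the ligands of Notch, had 94.6, 68.9 and 79.6 FPKM in Ctrl and 60.4, 69.8 and 69.7 in cKO. The groups overlapped through Ctrl 2, and the log2 fold change was -0.27 (SE 0.15, limma, unadjusted p = 0.119). *Rian* gave -0.20 and *Rtl1*, a gene derived from a retrotransposon, -0.13, both with overlapping groups. All 5 members of this domain thus had a log2 fold change below 0, with a median of -0.27, where 52.1% of all genes tested were below 0. *Dio3*, which lies at the far end of the domain, encodes the deiodinase that inactivates thyroid hormone and belongs to a separate list of other imprinted genes. It had 2.79, 2.56 and 3.41 FPKM in Ctrl and 1.72, 2.32 and 1.25 in cKO, for a log2 fold change of -0.52 (SE 0.19, limma, unadjusted p = 0.0281, adjusted p = 0.978). It missed the limit without Ctrl 1 (-0.54), Ctrl 3 (-0.43), cKO 1 (-0.51) or cKO 3 (-0.38). *Begain*, beyond the *Dlk1* end and on the same list, had a log2 fold change of 0.0062 and is named after its value was seen.

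**Figure D3:**
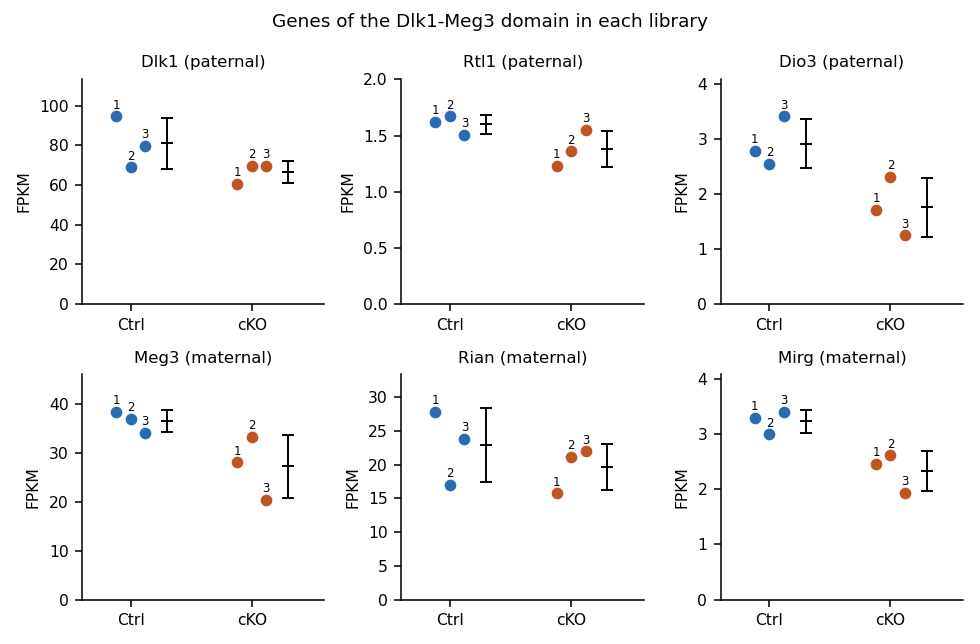
FPKM of 6 genes of the *Dlk1*-*Meg3* domain in each library (points numbered by replicate), with the mean and SD of the 3 libraries of a group in black. For *Dio3*, *Meg3* and *Mirg* every cKO point lies below every Ctrl point, while *Dlk1*, *Rtl1* and *Rian* overlap.

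*Meg3* FPKM divided by *Mirg* FPKM was 11.7, 12.3 and 10.01 in Ctrl and 11.4, 12.7 and 10.6 in cKO, a narrow range with no difference between the groups past its spread (exact permutation test, two-sided, p = 0.8). *Meg3* over *Rian* was looser, from 0.929 in cKO 3 to 2.17 in Ctrl 2. *Dlk1* over *Meg3*, a ratio of a paternally to a maternally expressed gene, lay between 1.86 and 2.47 in 5 libraries and was 3.42 in cKO 3, where *Meg3* was lowest (exact permutation test, two-sided, p = 0.7). The germ cell marker sum was highest in that library, 944.5, and its part in these values was not tested.

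In the *H19*-*Igf2* domain of chromosome 7, *H19* had 1563, 1425 and 1360.5 FPKM in Ctrl and 1271, 1995 and 1023 in cKO. The cKO libraries lay on both sides of the Ctrl libraries, and the spread of the cKO group (SD 505, n = 3) was wider than that of Ctrl (SD 103, n = 3). The log2 fold change was -0.07 (SE 0.27), and *H19* alone took 0.251% of the reads on genes in cKO 3 and 0.491% in cKO 2. *Igf2*, the fetal growth factor, was listed at 13.3, 14.3 and 12.7 FPKM in Ctrl and 14.5, 16.5 and 11.2 in cKO, for a log2 fold change of 0.05 (SE 0.16). *Igf2* was lowest in cKO 3 and highest in cKO 2, as *H19* was, and *H19* over *Igf2* stayed between 87.6 and 121 in all libraries. In the *Igf2r*-*Airn* domain of chromosome 17, *Igf2r*, the receptor that clears IGF2, had a mean of 32.4 ± 4.83 FPKM (SD, n = 3) in Ctrl and 30.1 ± 7.76 in cKO. *Airn*, the paternal antisense RNA that starts inside *Igf2r*, had 4.19 ± 0.501 in Ctrl and 4.45 ± 0.295 in cKO, so cKO and Ctrl differed by less than the spread between libraries in both.

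The *Kcnq1ot1* domain, also on chromosome 7, holds *Cdkn1c* with 300.1, 249.1 and 243 FPKM in Ctrl and 225, 309.6 and 216 in cKO. The groups overlapped, and the log2 fold change was -0.09 (SE 0.18). *Kcnq1ot1*, the long paternal RNA that silences its neighbours, was between 0.468 and 0.666 FPKM in all libraries, on 744 to 958 reads because it is 93092 bases long. *Slc22a18*, which encodes a transporter-like protein, had a log2 fold change of 0.10. *Phlda2*, known for limiting growth of the placenta, was 0.773, 0.331 and 1.48 FPKM in Ctrl and 0.462, 0.744 and 2.70 in cKO, and cKO 3 stood far above the other libraries on 43 reads. Without that library its log2 fold change turned from 0.23 to -0.17. *Ascl2*, a transcription factor of the trophoblast, rested on 1 to 12 reads and was not tested. Its 0.205, 0.0381 and 0.317 FPKM in Ctrl were below the 0.398, 0.330 and 0.521 in cKO, but so few reads carry large counting error.

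In the *Peg3* domain, *Peg3*, a zinc finger protein gene, had 80.3, 95.5 and 118 FPKM in Ctrl and 115, 85.4 and 121 in cKO, with a log2 fold change of 0.13 (SE 0.20). *Usp29*, which encodes a ubiquitin protease and starts across the 146 bases printed above, was far lower, at 1.17 to 1.86 FPKM. *Peg3* over *Usp29* nevertheless stayed between 59.6 and 68.9 in all 6 libraries. The maternally expressed neighbour *Zim1*, another zinc finger gene, ran from 26.9 to 47.3 FPKM with a log2 fold change of 0.17, and *Peg3* over *Zim1* varied from 2.16 to 3.23. All 3 genes had their lowest Ctrl value in Ctrl 1 and their lowest cKO value in cKO 2.

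*Peg10* and *Sgce* start 98 bases apart on chromosome 6 and point away from each other. *Peg10*, a retrotransposon-derived gene, had 109, 79.2 and 69.4 FPKM in Ctrl and 92.7, 108 and 109 in cKO. Ctrl 1 reached the level of the cKO libraries, and the log2 fold change was 0.29 (SE 0.19, limma, unadjusted p = 0.174), with 0.47 without Ctrl 1 (unadjusted p = 0.0229) and 0.15 without Ctrl 3 (unadjusted p = 0.481). *Sgce*, which encodes a sarcoglycan, had 8.03, 5.97 and 6.68 FPKM in Ctrl and 5.42, 7.80 and 5.67 in cKO, with a log2 fold change of -0.12. *Peg10* over *Sgce* was 13.6, 13.3 and 10.4 in Ctrl and 17.1, 13.9 and 19.3 in cKO, so every cKO library was above every Ctrl library, with means of 12.4 ± 1.78 and 16.7 ± 2.71 (SD, n = 3 each). Among the 11 pairs of neighbours compared, this was the only one at p = 0.1, the smallest that the exact permutation test allows, and the Benjamini-Hochberg adjusted value over the 11 pairs was 0.8. *Asb4*, a maternally expressed gene nearby that encodes an ankyrin repeat protein, was 1.37 to 3.76 FPKM in Ctrl and 2.32 to 3.21 in cKO. *Mest*, on another part of chromosome 6, had 150.7, 136 and 148 FPKM in Ctrl and 178, 145 and 167 in cKO, for a log2 fold change of 0.16 (SE 0.13).

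**Figure D4:**
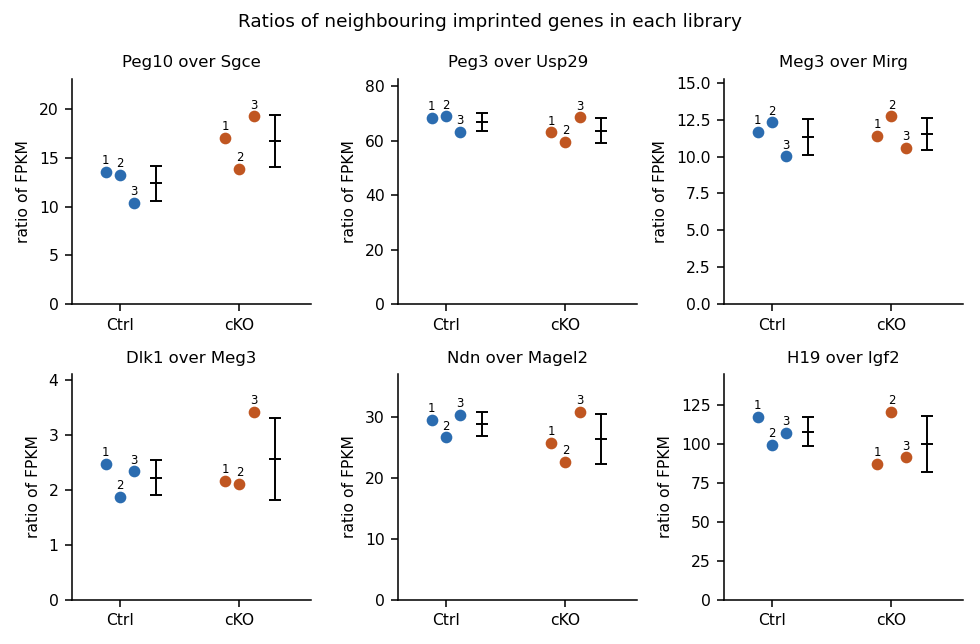
FPKM of a gene divided by that of its neighbour in each library (points numbered by replicate) for 6 pairs, with mean and SD of each group in black. The cKO points of *Peg10* over *Sgce* lie above all Ctrl points, and in the other 5 pairs the groups overlap.

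The *Snrpn* domain of chromosome 7 is the region whose human counterpart is known from Prader-Willi and Angelman syndromes. Its 4 members had log2 fold changes between 0.0038 (*Snrpn*) and 0.21 (*Ube3a*), none past the limit. *Ndn*, which encodes necdin, had a mean of 42.7 ± 3.85 FPKM (SD, n = 3) in Ctrl and 44.2 ± 7.91 in cKO. Its neighbour *Magel2*, of the same protein family, had 1.48 ± 0.0827 and 1.72 ± 0.532, and cKO 2 was highest for both genes. *Ube3a*, a ubiquitin ligase gene imprinted in neurons, was 5.19, 4.39 and 4.84 FPKM in Ctrl and 6.61, 4.32 and 6.52 in cKO. The values of cKO 1 and 3 were above the Ctrl range and that of cKO 2 was below it, and the log2 fold change of 0.21 was 0.38 without cKO 2 (limma, unadjusted p = 0.0205), 0.12 without cKO 1 and 0.13 without cKO 3. *Grb10*, an adaptor that restrains insulin and IGF receptor signalling, varied little between Ctrl libraries (49.9, 49.3 and 50.6 FPKM), and its cKO values of 59.1, 44.8 and 47.1 lay on both sides. *Ddc*, the dopa decarboxylase gene next to it, was between 0.436 and 0.703 FPKM.

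Among genes that are imprinted alone or in small clusters, *Mcts2* had 11.6, 10.9 and 12.5 FPKM in Ctrl and 12.9, 12.7 and 13.7 in cKO. All cKO values were higher, by a log2 fold change of 0.16 (SE 0.11), which missed the limit (limma, unadjusted p = 0.193) and stayed above 0 in all 17 settings. *Mcts2* is a retrogene inside an intron of *H13*, and both *H13* (log2 fold change 0.03) and *Mcts1* on the X chromosome (-0.08), the gene it was copied from, were close to 0. No stretch of 100 bases of *Mcts2* was found in another gene's transcripts. *Zrsr1*, another retrogene, which encodes a splicing protein related to U2AF and lies in an intron of *Commd1*, had 6.10, 4.12 and 3.44 FPKM in Ctrl and 3.23, 4.27 and 2.99 in cKO. Its log2 fold change was -0.29 (SE 0.21) and below 0 in all 17 settings, while *Commd1* gave 0.17 and *Zrsr2*, its X-linked relative, 0.29, none of them past the limit. *Nap1l5*, inside *Herc3*, was not tested and rested on 5 to 12 reads, with 0.181, 0.167 and 0.310 FPKM in Ctrl and 0.316, 0.388 and 0.344 in cKO. *Gnas*, the gene of the stimulatory G protein alpha subunit, was listed at 7.45, 8.85 and 7.90 FPKM in Ctrl and 7.38, 10.6 and 3.44 in cKO. If the counting was as described below, these values leave out reads on exon bases shared with other genes. They are for the whole gene model, not for the transcript of that subunit. Which *Gnas* transcripts they count was not resolved. The cKO 3 value was the lowest, on 546 reads, and the log2 fold change of *Gnas* turned from -0.26 to 0.12 without that library. *Plagl1*, a zinc finger transcription factor gene, had 29.8, 26.0 and 27.4 FPKM in Ctrl and 32.1, 23.1 and 40.3 in cKO, for a log2 fold change of 0.16. That change rested on single libraries, being 0.36 without cKO 2 (limma, unadjusted p = 0.0382) and -0.02 without cKO 3. *Nnat* (0.0048), *Impact* (-0.06) and *Rasgrf1* (0.07) had log2 fold changes near 0, with *Rasgrf1*, a Ras activator gene, between 0.121 and 0.894 FPKM.

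Exons shared with other genes limit how these levels can be read. In the deposited table, genes that lie wholly inside exons of a gene with at least 1000 reads were listed at 0 reads in 338 of 340 cases on the same strand and in 198 of 200 cases on the opposite strand, against 18106 of 42763 genes (42.3%) that share no exon. Most of those on the same strand were miRNA genes (161 of 162 at 0) and snoRNA genes (113 of 113), classes in which 69.3% and 77.1% of genes that share no exon were at 0 as well. That is the pattern of a count that gives reads on shared bases to neither gene and does not use strand, and the sources used here do not give that setting. As examples, the same was seen for *Mir675* in *H19*, for *Mir134*, *Mir485*, *Mir377* and *Mir410* in *Mirg*, all listed at 0. The 6 miRNA genes opposite *Rtl1*, which itself had fewer than 1000 reads, were also at 0. By the GENCODE M21 exons, 19 of the 35 imprinted genes share no exon base with another gene and 7 share over 10% of theirs. *Igf2* shares 62.8% with the read-through gene model *Gm49394*, which was at 0 reads in all libraries. Over its unshared bases alone, *Igf2* had 31.5 to 46.6 FPKM in place of 11.2 to 16.5, and *H19* over *Igf2* fell from a mean of 104 to 40.6. *Snrpn* shares 34.1% of its exon bases, with *Gm38393*, *Snurf* (at 0 reads) and a pseudogene. The other shares over 10% were 30.7% in *Cdkn1c* (with *Gm44732*), 27.3% in *Ube3a*, 23.1% in *Mest* (with *Copg2*), 22.0% in *Gnas* (with *Gm20721* and *Nespas*) and 14.8% in *Usp29*. *Gm20721* lies opposite *Gnas* from 174330319 to 174346712, close to the end of *Gnas* at 174346744, and covers 1469 of its exon bases. A *Gnas* transcript that lies mostly in that stretch would be counted on few of its bases, so the listed level can be far too low. Both bases divide the same listed reads, so a fold change between groups is the same on either, apart from the added 1. Reads that were left out on shared bases are in neither value. For genes with large shares, such as *Igf2*, *Snrpn* and *Gnas*, the fold change describes the remaining bases only.

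Levels of several imprinted genes varied between the libraries of a group (shown in the map of genes by library). Ctrl 1 and cKO 2, the libraries with the lowest germ cell sums, were also the lowest of their groups for *Peg3*, *Usp29*, *Zim1* and *Rasgrf1*, 4 of 33 genes (12.1%), where 19.7% of all genes tested had that pattern. They were the highest of their groups for 9 of 33 (27.3%), against 19.6% of all genes. These were *H19*, *Sgce*, *Cdkn1c*, *Dlk1*, *Meg3*, *Ndn*, *Magel2*, *Zrsr1* and *Asb4*, though *Dlk1* was nearly equal in cKO 2 (69.8 FPKM) and cKO 3 (69.7). The same libraries had the highest sums of their groups for markers of stroma (929.6 FPKM in Ctrl 1, 826.3 in cKO 2), pregranulosa cells (813.6 and 948.2), endothelium, macrophages, adrenal and steroid cells, and red blood cells. What part the cell make-up of the libraries has in the group differences was not tested beyond a fit with the germ cell level as a covariate, chosen after seeing the data. *Dazl*, *Dppa3* and *Tdrd9*, on the list behind that covariate, themselves passed the unadjusted limit between cKO and Ctrl. With the covariate, *Peg10* was past the limit at 0.41 (limma, unadjusted p = 0.0366), as were 5.86% of all genes tested, and *Mirg* was not, at -0.32 (unadjusted p = 0.0711). Without Ctrl 1 and cKO 2, likewise chosen later, *Meg3* was lower and *Peg10*, *Plagl1* and *Ube3a* were higher at the unadjusted limit, and all 4 had adjusted p above 0.05. These 4 are 12.1% of the 33 genes, and 11.9% of all genes tested passed in that fit. The median spread within groups was 0.22 on the log2 scale over the imprinted genes and 0.22 over all genes tested.

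**Figure D5:**
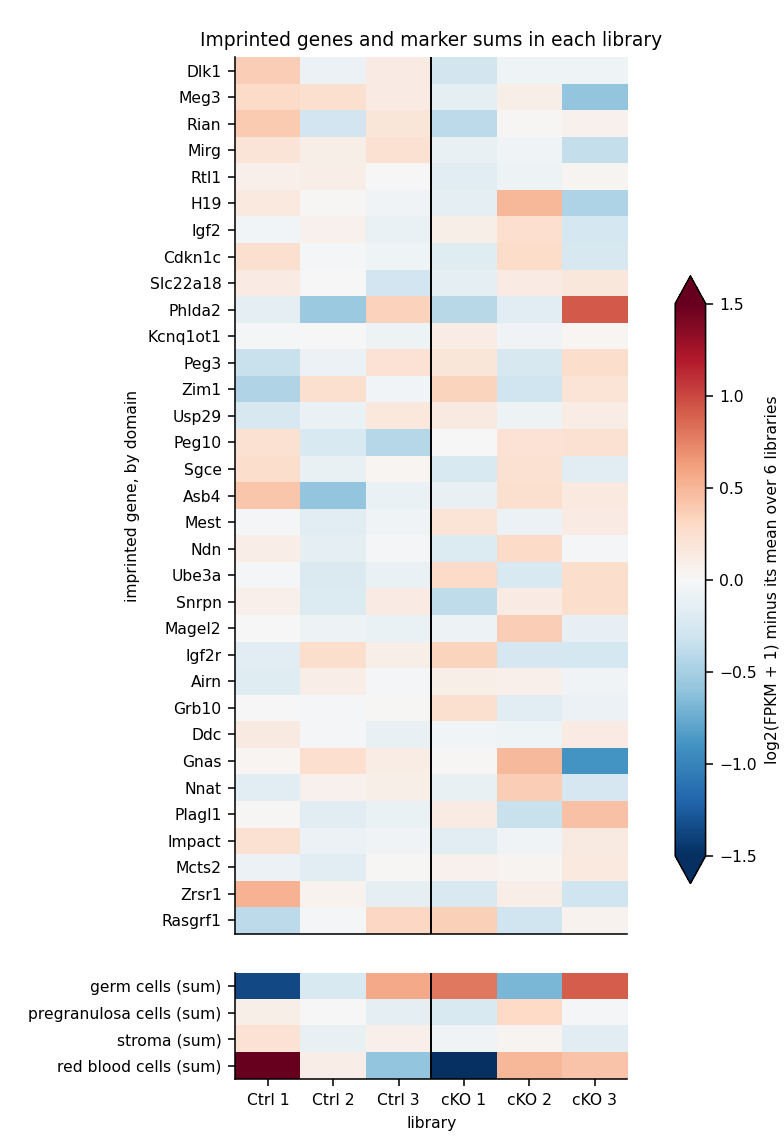
Log2(FPKM + 1) of 33 imprinted genes (rows, by domain) and of 4 summed marker lists (lower panel) in each library (columns), after subtracting the mean over the 6 libraries, with red above and blue below that mean. The germ cell sum is low in Ctrl 1 and cKO 2, where *Peg3*, *Zim1* and *Usp29* are low and *H19* and *Cdkn1c* are high for their group.

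Related gene lists were compared in the same way. Of 52 other imprinted genes, 38 were tested, of which 1 was higher (*Atp10a*, 0.40) and 2 were lower (*Dio3* and *Ampd3*, the latter at -0.90 with overlapping groups), with a median log2 fold change of 0.02. These 3 are 7.89% of the genes tested on that list, beside 4.43% of all genes. *Atp10a* missed the limit when any single library but cKO 2 was left out (0.32 to 0.43), and *Ampd3* when any but Ctrl 3 was (-1.003 to -0.60). The best expressed of these other imprinted genes were *Cd81*, *Gatm* and *Nap1l4*, at means of 116, 75.2 and 63.9 FPKM, none past the limit. Of 20 factors that set, keep or remove imprints, 18 were tested and 2 passed (11.1%, beside the same 4.43%). *Dppa3*, which protects methylation in the early embryo and marks germ cells, rose by 1.34 on the log2 scale (limma, unadjusted p = 0.0312, adjusted p = 0.978), from a mean of 0.859 to 4.14 FPKM, and is also on the germ cell list. It missed the limit without Ctrl 1 (1.39), Ctrl 2 (1.02) or cKO 3 (0.83), and with the germ cell level as a covariate (1.05, limma, unadjusted p = 0.0649). That covariate is a mean over the germ cell list, *Dppa3* included, so the fit cannot test *Dppa3* apart from it. The germ cell list had a median log2 fold change of 0.53, with 13 of 15 genes above 0. *Uhrf1*, the partner of the maintenance methyltransferase *Dnmt1*, was at 38.5, 40.3 and 30.5 FPKM in Ctrl and 26.8, 23.8 and 27.6 in cKO, and fell by 0.46 on the log2 scale (limma, unadjusted p = 0.0151, adjusted p = 0.978). Without Ctrl 1 (-0.42) or Ctrl 2 (-0.39) it missed the limit. *Trim28* (136 FPKM), *Setdb1* (39.4 FPKM) and *Ehmt2* (38.7 FPKM), corepressor and histone methyltransferase genes, were the best expressed of that list, and *Zfp57* stood at 22.7 FPKM with a log2 fold change of -0.06. Of 18 receptors, binding proteins and partners of the IGF pathway, 16 were tested and 0 passed the limit in limma (0 in limma voom as well), with a median of -0.07. Their best expressed members were *Igfbp5* (381 FPKM), *Igfbp4* (156 FPKM) and *Igfbp2* (120.3 FPKM), secreted proteins that bind IGFs. Of 8 genes listed as hosting an imprinted member or overlapping one, 0 passed the limit in limma, nor did the X-linked *Mcts1* or *Zrsr2*. The 8 are *H13*, *Commd1*, *Herc3*, *Blcap* (with *Nnat*), *Kcnq1* and *Kcnq1ot1* (with each other), and *Igf2r* and *Airn* (likewise). Other genes that overlap a member, such as *Copg2* with *Mest*, were not on that list.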

How the data were processed

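RNA of whole ovaries at 16.5 dpc was sequenced in 3 Ctrl and 3 cKO libraries, grouped and numbered by the sample labels. The authors aligned paired-end reads to mm10 with HISAT2 2.0.5, per the labels, counted reads per gene and deposited FPKM values, which are divided by gene length and library size. From gene lengths, the FPKM that 1 read stands for was derived per library, and all values (100%) were whole reads to within 0.05. The groups were compared in limma 3.58.1 (R 4.3.3) with an intensity trend, on log2(FPKM + 1) of 17180 genes whose mean FPKM reached 0.5. Tests were two-sided, and p was adjusted over all of these genes by the Benjamini-Hochberg method. Single values were compared with exact permutation tests. Where nothing in the labels says that libraries came from separate animals, p-values measure the spread between libraries, which the study calls biological replicates.

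Exons were taken from GENCODE M21 (GRCm38), in which 97.8% of the table's genes have the same length, and sequences from RefSeq tables of GRCm38.p6. FPKM over unshared bases divides a gene's reads by its exon bases outside other genes. *Impact*, whose length differs between the table and M21, was left out of that. Tables were read with pandas 2.3.3 and numpy 2.4.6 under Python 3.11.15, permutation tests used scipy 1.17.1, and figures were drawn with matplotlib 3.10.9. In simulated libraries with 200 changed genes, 84% of those changed 2-fold and 94% of those changed 4-fold passed the unadjusted limit, as did 5.12% of unchanged genes, among 17208 genes tested. The changed genes were drawn from those with a mean FPKM of at least 1, so these shares do not cover the weaker genes tested. Each gene was simulated on its own, without differences in cell make-up that many genes share.

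The imprinted genes, the related lists and the tests were chosen with earlier results of these data known. Named genes are all imprinted members, the 8 listed host or overlapping genes, some others that share exons with members, and the X-linked relatives *Mcts1* and *Zrsr2*. Of each related list, every gene past the unadjusted limit and the 3 with the highest mean FPKM are named. *Zfp57* and *Dnmt1* were named besides for their roles, and *Myl7*, *Des*, *Dazl* and *Tdrd9* after their values were seen. The alternatives were median-ratio scaling, limma voom on the recovered reads, a fit with the replicate number as a block, a fit without the trend, pseudocounts of 0.1 and 0.5, a mean FPKM limit of 1 or none, and each library left out. After the data were seen, a fit without Ctrl 1 and cKO 2 and a fit with the mean germ cell marker level as a covariate were added. Parental alleles, splicing and mature miRNAs were not analysed here. Expression is also summed over marker lists of pregranulosa, stroma, endothelial, red blood, macrophage, mesonephros, adrenal and steroid, nerve, muscle and retina cells.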

Additional observations from a re-analysis of the deposited data

How the results depend on the processing

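Over 16 alternatives and 33 imprinted genes, 501 of 525 log2 fold changes kept their side of the unadjusted limit and moved by less than the spread between libraries, 11 gained the limit, 9 lost it and 4 moved by more than that spread. No log2 fold change past the limit in either setting turned its sign. The count of imprinted genes past the limit was 1 in the reported fit, 0 with no filter on low values, 2 under limma voom on recovered reads (*Meg3* and *Mirg*), 4 without Ctrl 1 and cKO 2, and between 0 and 4 with 1 library left out. Over all genes, 761 became 1331 with no filter, 2050 without Ctrl 1 and cKO 2, and 364 to 2493 with 1 library left out, fewest without Ctrl 2 and most without cKO 2. The median of the imprinted genes was -0.013 without Ctrl 1 and cKO 2 and ran from -0.027 to 0.042 with 1 library left out. Of other imprinted genes, 3 passed in the reported fit, 0 under the replicate block, 0 with the germ cell covariate and 0 to 5 with 1 library left out. Imprint control factors went from 2 to 4 without Ctrl 1 and cKO 2, to 1 with the covariate and to 0 to 6 with 1 library left out, and IGF partners from 0 to 1 with the covariate and to 0 or 1. The cause of these changes was not tested.

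The replicate numbers are not shown to pair the libraries: same-numbered Ctrl and cKO libraries had correlations of -0.39, -0.03 and 0.12 in their deviations from the group means. With the replicate number as a block, 681 genes passed the limit, and of the imprinted genes *Meg3* did (-0.43, unadjusted p = 0.0454 in limma) and *Mirg* did not (unadjusted p = 0.0948). Low members such as *Ascl2*, *Nap1l5* and *Phlda2*, at 1 to 43 reads per library, are limited by counting error. Intervals and tests cover the spread of 3 libraries per group.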

Other observations

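Genes were also summed by the copy they are known to be expressed from, which was not measured in these ovaries. The 21 paternally expressed genes had 635, 570.4 and 613 FPKM in Ctrl and 633, 632 and 666 in the cKO libraries. The 14 maternally expressed genes summed to 2056, 1878 and 1803 in Ctrl and to 1706, 2483 and 1417 in cKO, most of it *H19*. Without *H19* the maternal sum lay between 442 and 493 for Ctrl and between 394 and 488 for cKO. The groups overlapped for each of these sums, and the maternal sum was lowest in cKO 3 and highest in cKO 2 with *H19* counted.

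Of the other cell types checked by marker genes, summed levels were 99.2 to 126 FPKM for endothelium in Ctrl and 101 to 127 in cKO, 60.2 to 75.7 and 43.9 to 78.8 for macrophages, and 155 to 173 and 141 to 200 for mesonephros. Adrenal and steroid cell markers summed to 71.6 to 113 FPKM in Ctrl and 61.6 to 130.3 in cKO, and nerve and adrenal medulla markers to 12.7 to 17.0 and 12.5 to 17.5. Muscle markers summed to 7.12 to 11.2 FPKM in Ctrl and 12.5 to 13.6 in cKO, which did not overlap. Among these 10 genes *Myl7* had 1.58, 1.15 and 1.84 FPKM in Ctrl and 6.69, 4.34 and 6.92 in cKO. For *Des*, the best expressed of them, the groups overlapped, so the muscle sum is not a measure of muscle cells. Red blood cell genes were the most uneven, with sums between 1722 FPKM in cKO 1 and 23320 in Ctrl 1. Their part in the levels of imprinted genes was not tested.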
